A study of Homo sapiens with 4 samples.

Results

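The change in NSUN2 IP enrichment with lactate was followed over 2500 of the 24483 genes in the deposited expression table. The cells were PANC-1, a human line from a pancreatic ductal adenocarcinoma with the genotype given as wild-type, and received 30 mM sodium lactate for 24 h or ddH2O as the vehicle. RNA was precipitated for 4 h with an antibody against NSUN2, and an input was taken from each lysate beforehand. The groups were lactate IP, lactate input, vehicle IP and vehicle input, with 1 library each, so no value has a replicate error and no test was run. No library made with a control antibody was analysed here, and enrichment therefore cannot separate RNA bound by NSUN2 from RNA carried along. Libraries were made with the SMART-Seq v4 kit from total RNA of the whole culture, in which fewer cells of a kind and less RNA per cell cannot be told apart.

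NSUN2 is an RNA methyltransferase that places a methyl group on carbon 5 of cytosine (m5C). It modifies transfer RNA at several positions, vault RNA and a set of messenger RNAs, and m5C in messages is read by proteins such as ALYREF and YBX1. Lactate can be joined to lysines of proteins, a modification called lactylation, and the series title links it to NSUN2 and to perineural invasion, in which tumour cells grow along nerves. The comparison asks which RNAs were more or less enriched over their own input in the NSUN2 IP after lactate.

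Enrichment was log2((IP + 1)/(input + 1)) of FPKM, fragments scaled to gene length in kilobases and to library size. The change is this value in lactate cells less the value in vehicle cells, centred on the median of the nuclear genes. A gene entered if 1 or both IP libraries reached FPKM 5 and both inputs reached 1, and a change of at least 1 or at most -1 (2-fold) was counted. Of the 2500 genes, 2477 were nuclear, 2179 of them protein-coding, and 23 were mitochondrially encoded. The IP minimum was met in both conditions by 1304 genes, in the vehicle IP alone by 1190 and in the lactate IP alone by 6. Genes that entered through a single IP library were held to be high there: the 6 that entered through the lactate IP had a median change of 1.09, and the 1190 that entered through the vehicle IP a median of -0.06. Those 1190 hold 30 of the 40 genes counted below as lower and 8 of those counted as higher, against 10 lower and 27 higher among the 1304 that met the minimum in both. The minimum on inputs left out 334 genes of the 2834 with enough IP signal, of which 44 stood at 0 in an input.

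Library totals recovered from the FPKM values lay between 11175432 reads in the lactate input and 17626197 in the vehicle input. Nuclear genes took 13.9% of the lactate IP and 20.9% of the lactate input, against 30.3% of the vehicle IP and 31.3% of the vehicle input. Most of the rest was MT-RNR2, the large ribosomal RNA of mitochondria, with 83.7% and 55.1% in lactate cells and 68.0% and 41.0% in vehicle cells. A nuclear gene of the comparison had a median of 301 reads in the lactate IP and 217 in the lactate input, against 603 in the vehicle IP and 532 in the vehicle input. Markers of ductal and PANC-1 identity summed to FPKM 456 in the lactate IP and 1990 in the lactate input, against 1333 and 3338 in the vehicle libraries. S100A6 made up most of that sum in the inputs, with 1740 in the lactate input and 2929 in the vehicle input. The epithelial keratins KRT18 and KRT8 had 45.5 and 11.98 in the lactate input, against 116 and 28.9 in the vehicle input, and the mesenchymal VIM had 176 in the lactate input and 237 in the vehicle input. Other defining epithelial markers were low in the inputs, with EPCAM at 1.18 in lactate cells and 1.56 in vehicle cells, CDH1 at 0.074 and 0.12, and KRT7 at 0.067 and 0.37. Markers of neurons and Schwann cells and of fibroblast, endothelial and immune cells summed to at most 2.46 in any library, and 0 of them entered the comparison.

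Enrichment shifted as a whole before it was centred. The median log2 enrichment was 0.01 in lactate cells and 0.58 in vehicle cells, and the median nuclear change was -0.52. FPKM of nuclear genes was lower in both lactate libraries, with a median log2 ratio of lactate over vehicle of -1.03 between the IPs and -0.52 between the inputs. Nuclear genes also had the smaller share of reads in the lactate libraries. With the libraries scaled to equal nuclear totals, the median nuclear change was -0.068 in place of -0.52. The cause of the smaller share was not tested. All changes below are relative to the median nuclear gene.

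The order of genes by enrichment was largely shared by the conditions. Across 2477 nuclear genes, enrichment in lactate cells and in vehicle cells had a Pearson r of 0.93 and a Spearman rho of 0.92, given as a description because genes are not replicates and gene length and base composition are common to both. The interquartile range of enrichment was 1.58 in lactate cells and 1.62 in vehicle cells, against 0.51 for the change (-0.25 to 0.26). The change lay within 0.5 of the median for 77.5% of genes, and its 5th and 95th percentiles were -0.69 and 0.71. Of 398 genes enriched at least 2-fold above the nuclear median in lactate cells, 275 (69.1%) were so in vehicle cells too, which is 72.9% of the 377 in vehicle cells. Of 558 genes at least 2-fold under it in lactate cells, 492 (88.2%) were shared, or 82.3% of the 598 in vehicle cells. Genes at least 2-fold above it in one condition and at least 2-fold under it in the other numbered 0.

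**Figure D1:**
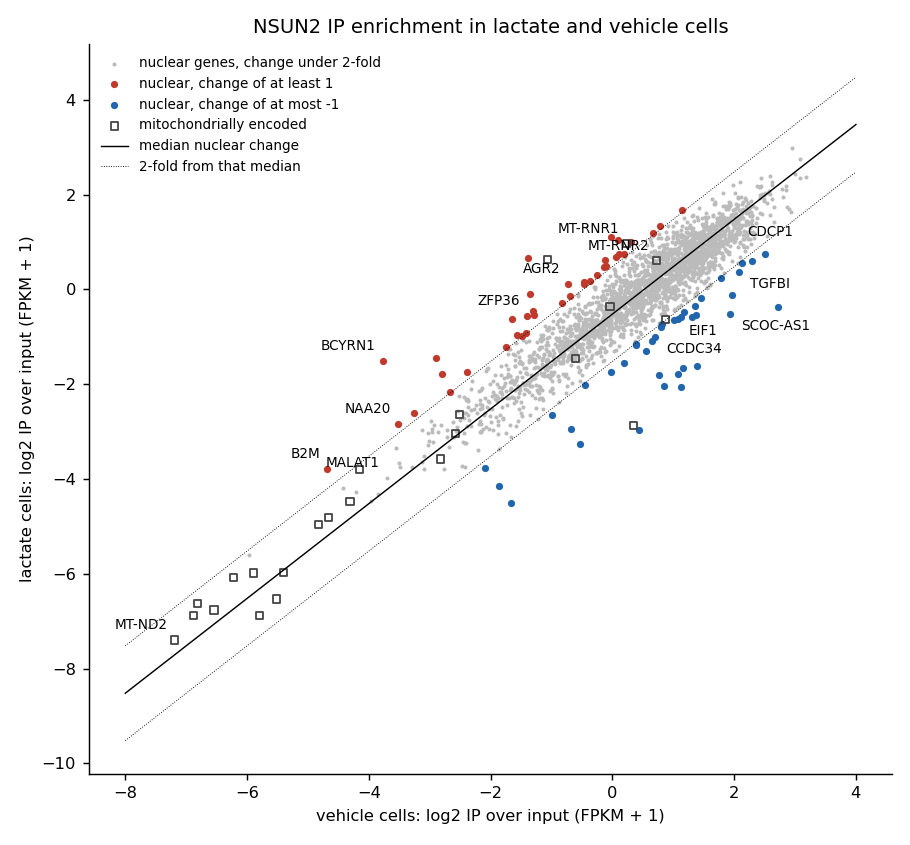
Log2 enrichment over input in lactate cells (vertical) against vehicle cells (horizontal) for the 2500 genes, 1 point each, from 1 library per group. The solid line is the median nuclear change of -0.52 and the dotted lines lie 2-fold on either side; 37 nuclear genes lie above them (red) and 39 below (blue), and squares are mitochondrially encoded genes.

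In all, 39 genes (1.56%) had a change of at least 1 and 40 genes (1.6%) a change of at most -1, 3.16% together. With the further condition that the 95% counting interval of the reads excluded 0, 33 (1.32%) and 35 (1.4%) were left. Counting intervals cover the sampling of reads only, since the kit adds no molecular identifiers, and they say nothing of the spread between cultures. At the threshold, the values just inside and just outside were 1.01 and 0.997 above and -1.01 and -0.999 below. The split of higher against lower calls, 49.4% higher, depended on the centre: it was 2.57% (8 and 303 genes) without centring and 19.8% (19 and 77) with the centre taken over nuclear genes with FPKM of at least 1 in any library.

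Few of the calls were protein-coding messages with many reads. Of 2179 nuclear protein-coding genes 25 (1.15%) were called, 16 higher and 9 lower. Processed pseudogenes gave 27 of 219 (12.3%), lncRNA genes 10 of 47 (21.3%) and small noncoding RNA 10 of 19 (52.6%). By the reads of the library with the fewest, 38 of 171 nuclear genes under 30 reads were called (22.2%), 20 of 578 between 30 and 100 (3.46%), and 0 of 145 with at least 1000. Among protein-coding genes, the 545 shortest had 14 called and the 545 longest had 1. The called coding genes that were higher had a median length of 1757.5 bp and those that were lower 2651 bp, against 4055 bp for all coding genes of the comparison. How far length and read number account for these calls was not tested.

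**Figure D2:**
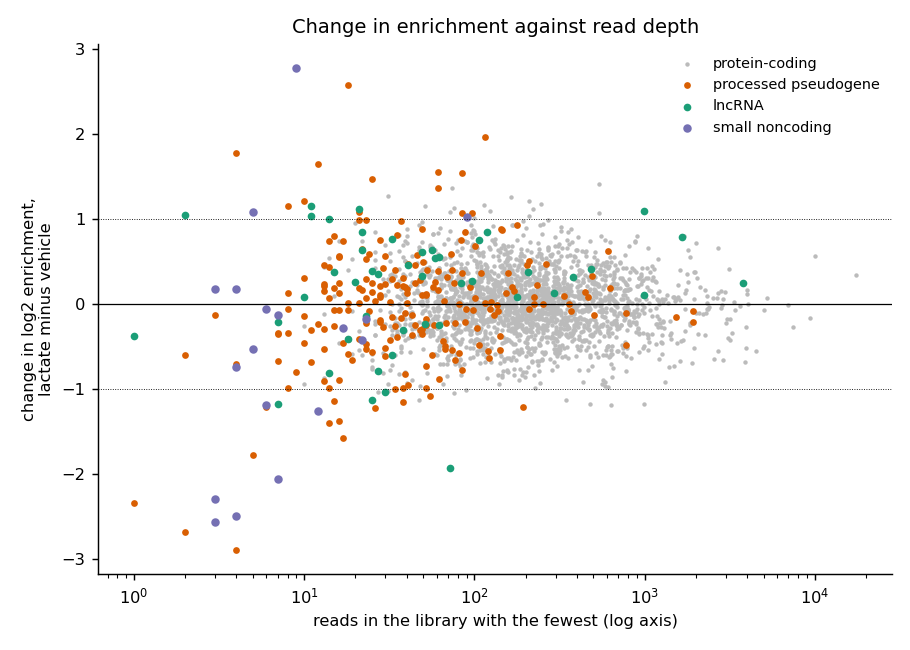
Change in enrichment of the nuclear genes (vertical, log2, lactate minus vehicle) against the reads in the library with the fewest (horizontal, log axis), coloured by gene class. Points widen towards few reads, where pseudogenes and small RNA lie, and 0 of the 145 genes with at least 1000 reads pass the dotted 2-fold lines.

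The protein-coding genes with the highest changes were messages under the nuclear median of enrichment in vehicle cells. Relative to the nuclear median, the 16 called higher had a median enrichment of -0.56 in lactate cells and -1.92 in vehicle cells. The vehicle value is subtracted in the change that picked these genes, so its low level is partly built in. Among the 12 highest named here (at least 30 reads in both inputs and in an IP, and an interval excluding 0), the change lay between 1.09 and 1.41. B2M (chr15:44711517-44718145 in GRCh38.p14), the invariant chain of MHC class I molecules, was highest. B2M had FPKM 16.4 in the lactate IP and 241 in the lactate input, against 12.7 in the vehicle IP and 351 in the vehicle input. It was thus higher in the lactate IP and lower in the lactate input on the deposited scale, while nuclear genes at large were lower in both. Its change was 1.41, or 1.48 on reads (95% counting interval 1.32 to 1.64), and it stayed depleted in both conditions, at -3.81 in lactate cells and -5.26 in vehicle cells.

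ZFP36, or tristetraprolin, binds AU-rich elements of inflammatory messages and promotes their decay. ZFP36 had FPKM 10.5 in the lactate IP and 15.8 in the lactate input, against 5.50 in the vehicle IP and 16.2 in the vehicle input. Its inputs were close to each other and its IPs were not, and the change was 1.37 (1.52 on reads, 1.04 to 2.01). AGR2, which forms disulfide bonds in the endoplasmic reticulum, showed the opposite makeup. AGR2 had FPKM 4.43 in the lactate IP and 4.01 in the lactate input, against 7.07 in the vehicle IP and 12.4 in the vehicle input. Relative to the nuclear median its IP ratio of lactate over vehicle was 0.46 and its input ratio -0.90, so most of the change of 1.37 lay in the input. Of the 12 genes AGR2 was the only one with the larger part in the input.

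The other genes of this end served varied functions. CKS2, a subunit of cyclin-dependent kinases, stood at 1.27, and ATP5MC1, which encodes the c subunit of ATP synthase, at 1.26. NAA20, the catalytic subunit of an N-terminal acetyltransferase, had FPKM 6.34 in the lactate IP and 51.3 in the lactate input, against 7.23 in the vehicle IP and 93.4 in the vehicle input, a change of 1.21. HIGD1A, a mitochondrial protein induced by hypoxia, had 5.64 and 39.7 in lactate cells, against 5.97 and 66.0 in vehicle cells, a change of 1.17. These messages, like B2M, were far lower in the IP than in the input of both conditions. LXN (latexin, a carboxypeptidase inhibitor) stood at 1.16 and overlaps GFM1 in the genome. POP7, a subunit of RNase P, stood at 1.15, CDK2AP2, a binding partner of a cyclin-dependent kinase, at 1.13, MYL12A, a myosin regulatory light chain, at 1.12, and RAB14, a GTPase of membrane traffic that overlaps GSN, at 1.09. Use of strand in the authors' counting was not given in the sources used here, so reads of overlapping genes cannot be assigned with certainty.

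**Figure D3:**
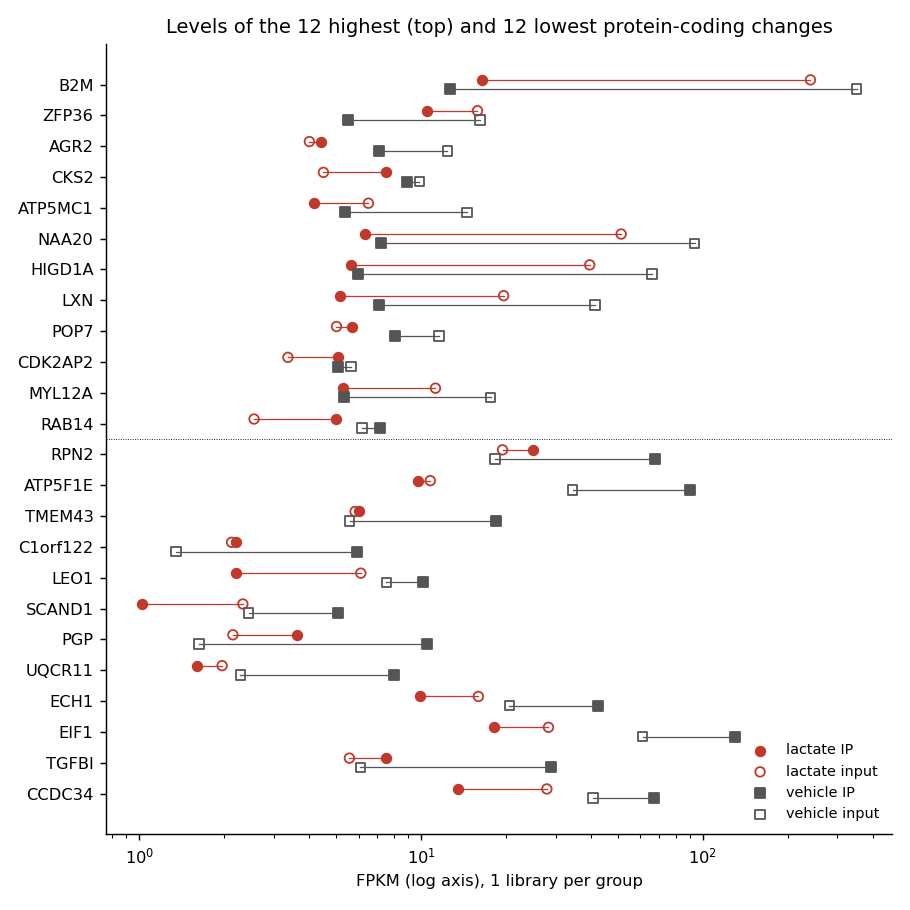
FPKM (log axis) in each of the 4 libraries for the 12 protein-coding genes with the highest change (above the dotted line) and the 12 with the lowest (below it), 1 library per group; lines join each IP to its input. In B2M and ZFP36 the lactate IP lies above the vehicle IP, while in TGFBI and EIF1 it lies far below it.

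The protein-coding genes with the lowest changes mostly lay above the nuclear median of enrichment in vehicle cells. Relative to the nuclear median, the 9 called lower had a median enrichment of -0.63 in lactate cells and 0.50 in vehicle cells. Here too the choice of genes by the change partly builds in the higher vehicle value. CCDC34, a coiled-coil protein, had FPKM 13.5 in the lactate IP and 27.9 in the lactate input, against 67.1 in the vehicle IP and 40.7 in the vehicle input, a change of -1.18 (-1.20 on reads, -1.37 to -1.04). TGFBI (chr5:136028988-136063818), a matrix protein induced by TGF-beta, had FPKM 7.51 in the lactate IP and 5.57 in the lactate input, against 28.9 in the vehicle IP and 6.09 in the vehicle input. Its inputs were close on the deposited scale and its lactate IP lay far below its vehicle IP, with a change of -1.18 (-1.25 on reads, -1.44 to -1.05). Relative to the nuclear median its IP ratio of lactate over vehicle was -0.78 and its input ratio 0.41. EIF1, an initiation factor that acts in start codon selection, had FPKM 18.1 in the lactate IP and 28.3 in the lactate input, against 130 in the vehicle IP and 61.1 in the vehicle input. EIF1 was lower in both lactate libraries, more so in the IP, and its change was -1.17 (-1.17 on reads, -1.30 to -1.03).

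The other low genes had varied functions. ECH1, an isomerase of fatty acid oxidation, stood at -1.13. UQCR11, a subunit of respiratory complex III, stood at -1.12, and ATP5F1E, the epsilon subunit of ATP synthase, at -0.97. ATP5F1E had FPKM 9.74 in the lactate IP and 10.8 in the lactate input, against 90.2 in the vehicle IP and 34.5 in the vehicle input. PGP, a phosphoglycolate phosphatase, stood at -1.05, SCAND1, a SCAN domain protein, at -1.02, LEO1, a subunit of the PAF1 complex of transcription elongation, at -1.01, and C1orf122 at -0.999, just under the threshold. UQCR11, PGP, SCAND1, LEO1 and C1orf122 were under FPKM 5 in the lactate IP, from 1.02 in SCAND1 to 3.62 in PGP. They met the IP minimum in the vehicle IP alone, so each could enter the comparison only by being high there. TMEM43, a protein of the inner nuclear membrane, stood at -0.99 and RPN2, a subunit of the oligosaccharyltransferase, at -0.97. RPN2 had FPKM 24.97 in the lactate IP and 19.5 in the lactate input, against 67.8 in the vehicle IP and 18.3 in the vehicle input. In RPN2, PGP, TMEM43 and C1orf122 the part from the input was the larger, and in the other 8 of the 12 that from the IP.

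**Figure D4:**
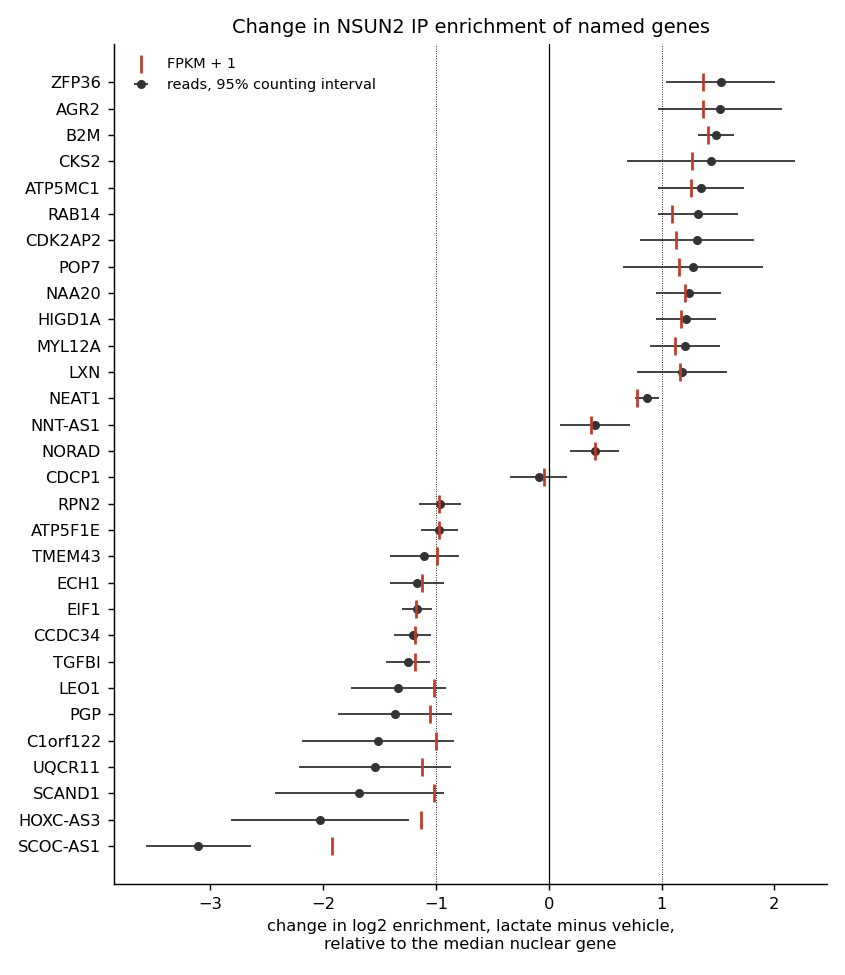
Change in log2 enrichment of the 24 named protein-coding genes, the named lncRNA and CDCP1, relative to the median nuclear gene. Points are changes on recovered reads with their 95% counting intervals, red ticks are changes on FPKM + 1, and dotted lines mark 2-fold. Only CDCP1 has an interval that holds 0, because all other genes shown were named on the condition that theirs excluded it.

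Among lncRNA genes with a symbol, SCOC-AS1 had the largest change of either sign. SCOC-AS1 (chr4:140283726-140373392), an RNA antisense to SCOC, had FPKM 0.51 in the lactate IP and 1.15 in the lactate input, against 8.81 in the vehicle IP and 1.57 in the vehicle input. These rest on 72 and 120 reads in lactate cells, against 1124 and 259 in vehicle cells. Its change was -1.92, or -3.10 on reads without a pseudocount (-3.57 to -2.64), and enrichment relative to the nuclear median was -0.52 in lactate cells and 1.35 in vehicle cells. The authors' deposited peak lists held 0 peaks of SCOC-AS1 at q under 0.05 for lactate cells and 3 for vehicle cells, of which the highest had the authors' fold enrichment of 8.10. SCOC-AS1 overlaps SCOC and pseudogenes. HOXC-AS3, which overlaps HOXC10, stood at -1.13 on 25 and 39 reads in lactate cells, against 263 and 120 in vehicle cells. Only these 2 genes met the terms for the low end of the lncRNA. Both met the IP minimum in the vehicle IP alone, HOXC-AS3 with FPKM 0.53 in the lactate IP and 6.21 in the vehicle IP.

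All 5 lncRNA genes called higher have no symbol in the table, and 3 of them had an interval above 0. The highest lncRNA genes with a symbol were lower than these. NEAT1, the scaffold of paraspeckles, had FPKM 6.47 in the lactate IP and 14.998 in the lactate input, against 5.36 in the vehicle IP and 15.4 in the vehicle input, a change of 0.79 (0.87 on reads, 0.76 to 0.98). NORAD, which binds PUMILIO proteins, stood at 0.41 and NNT-AS1 at 0.37. MALAT1, an abundant RNA of nuclear speckles, stood at 0.25 with FPKM 28.2 in the lactate IP and 457 in the lactate input, against 34.2 in the vehicle IP and 456 in the vehicle input. TUG1 was the only one of the 6 measured nuclear long noncoding RNAs under the median, at -0.17. The interval on reads lay above 0 for 3 of the 6.

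Mitochondrial RNA was set on the same scale. MT-RNR1, the small ribosomal RNA, had a change of 1.26 and MT-RNR2 of 0.39. Of the 13 mitochondrially encoded messages 10 lay above the median nuclear gene and 3 below, with a median of 0.37. The highest was MT-CO2, a cytochrome c oxidase subunit, at 0.88, with FPKM 736 in the lactate IP and 10213 in the lactate input, against 842 in the vehicle IP and 14935 in the vehicle input. The lowest were MT-ATP8, a short ATP synthase subunit whose gene overlaps MT-ATP6, at -0.56 and MT-ND6, a complex I subunit encoded on the other strand, at -0.50. These messages remained depleted in both conditions, so the changes are differences between strong depletions.

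CDCP1, STC1 and NSUN2 are of interest in the study. CDCP1 (chr3:45082277-45146482), a transmembrane protein of adhesion and migration, had FPKM 12.4 in the lactate IP and 3.81 in the lactate input, against 15.997 in the vehicle IP and 3.13 in the vehicle input. Relative to the nuclear median it was higher in lactate cells in the IP (0.69) and in the input (0.74) by nearly the same amount. Its enrichment was therefore 1.46 in lactate cells and 1.46 in vehicle cells, and its change -0.05 (-0.09 on reads, -0.34 to 0.16). In the authors' deposited peak lists CDCP1 had 11 peaks at q under 0.05 in lactate cells and 16 in vehicle cells. The highest in each list lay in an exon, at chr3:45088910-45089325 with the authors' fold of 30.1 in lactate cells and at chr3:45088902-45089329 with 18.2 in vehicle cells. The authors called these peaks for each IP library against its own input, and fold values of lists of different depth were not compared.

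STC1 and NSUN2 were under the IP minimum and are no members of the 2500. STC1, a secreted glycoprotein hormone, had FPKM 1.56 in the lactate IP and 1.15 in the lactate input, against 0.94 in the vehicle IP and 1.37 in the vehicle input. These stand for 98 and 53 reads in lactate cells, against 53 and 100 in vehicle cells. By the same formula its change was 1.06, or 1.55 on reads (0.87 to 2.23). Before centring its log2 enrichment was 0.25 in lactate cells and -0.29 in vehicle cells. The value of 1.06 is centred on genes of the comparison (-0.52), to which STC1 does not belong. Without centring, or with the centre of -0.36 over nuclear genes of FPKM at least 1 in any library, it lay under 1. The message of NSUN2 itself had FPKM 1.22 in the lactate IP and 1.85 in the lactate input, against 3.04 in the vehicle IP and 3.39 in the vehicle input, and its change of 0.28 came with an interval on reads that held 0 (-0.34 to 0.58).

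Gene lists were described by their counts and medians, beside 50.2% of all genes above 0, 23.9% with an interval above 0 and 24.5% with an interval below 0. Aminoacyl-tRNA synthetases, which charge transfer RNA with amino acids, lay mostly below the median. Of 12 measured members of 23 listed, 11 were below 0 and 1 above, with a median of -0.30, and the interval lay below 0 for 8 of them. NARS1 of asparagine was lowest, with FPKM 9.98 in the lactate IP and 39.3 in the lactate input, against 35.0 in the vehicle IP and 58.9 in the vehicle input, a change of -0.62. RARS1 of arginine and KARS1 of lysine stood at -0.60 and -0.54, and QARS1 of glutamine was the member above 0, at 0.04. The list's IP ratio of lactate over vehicle had a median of -0.40 relative to nuclear genes and its input ratio -0.12.

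Nucleolar and snoRNP proteins, which process ribosomal RNA, had 10 of 13 measured members below 0, a median of -0.23 and 4 intervals below 0. NOP58, a core protein of box C/D snoRNPs, had FPKM 11.3 in the lactate IP and 19.0 in the lactate input, against 59.0 in the vehicle IP and 34.4 in the vehicle input, a change of -0.94. NCL (nucleolin) stood at -0.34 and GNL3, a nucleolar GTPase, at -0.30. SNU13, a protein shared by snoRNPs and the spliceosome, ran the other way at 0.85, and FBL (fibrillarin) stood at 0.02. Matrix and epithelial mesenchymal transition genes had 9 of 14 measured members below 0, a median of -0.26 and 7 intervals below 0. TGFBI was lowest, and VIM (vimentin) and ITGA6 (an integrin of laminin) both stood at -0.51. PLAU, the plasminogen activator urokinase, was highest at 0.83, with FPKM 11.4 in the lactate IP and 7.53 in the lactate input, against 12.4 in the vehicle IP and 10.4 in the vehicle input.

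**Figure D5:**
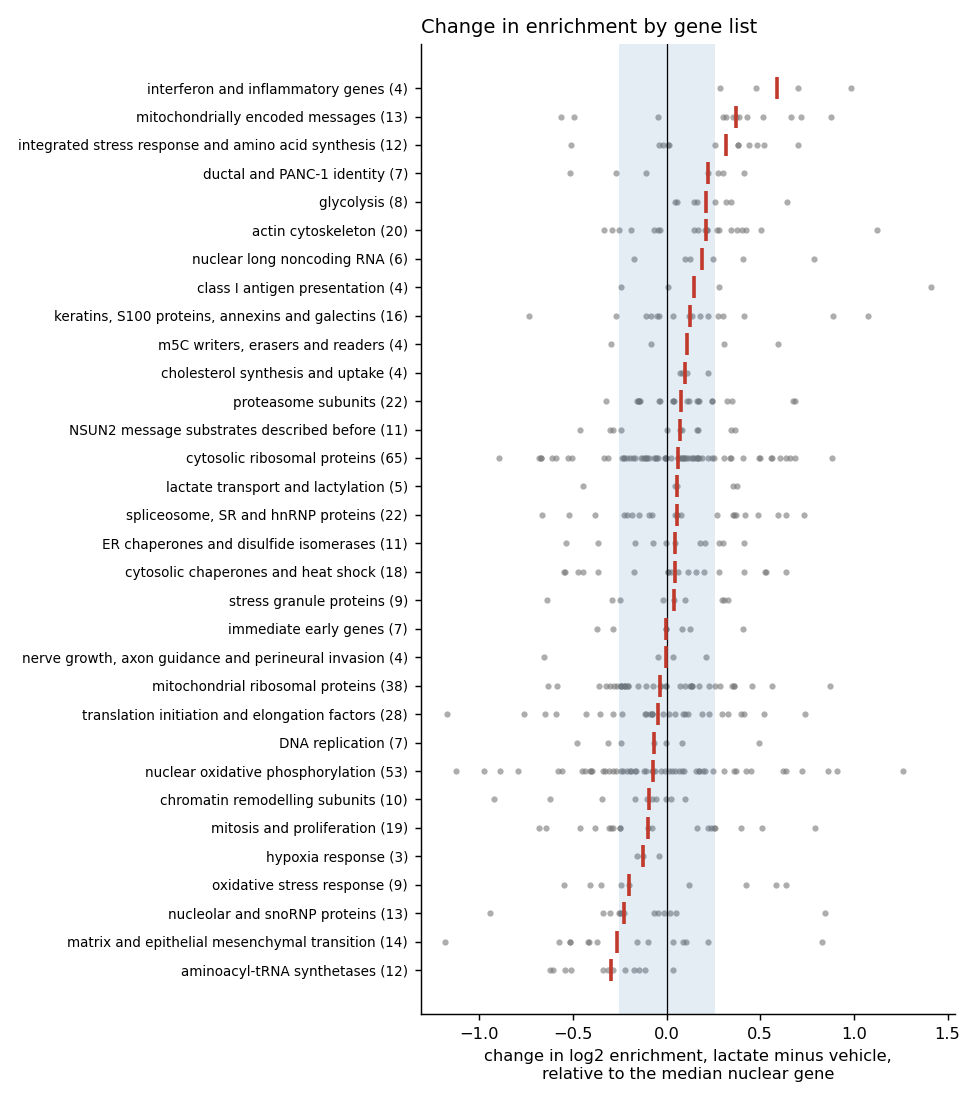
Change in enrichment of the members of each gene list with at least 3 measured members (grey points, log2, lactate minus vehicle), with the number of members in brackets and the list's median as a red tick. The blue band is the interquartile range of all 2500 genes (-0.25 to 0.26), and only the medians of 5 lists lie outside it, from -0.30 for aminoacyl-tRNA synthetases to 0.59 for interferon and inflammatory genes.

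Glycolysis, integrated stress response and the few measured inflammatory genes had list medians above 0. All 8 measured glycolysis genes of 18 listed were above 0, with a median of 0.21 and 4 intervals above 0. TPI1, the triose phosphate isomerase, had FPKM 32.6 in the lactate IP and 13.2 in the lactate input, against 64.9 in the vehicle IP and 29.2 in the vehicle input, a change of 0.64. PKM, the pyruvate kinase, stood at 0.34, and LDHA and LDHB, which interconvert pyruvate and lactate, both at 0.05. Of the 12 measured genes of the integrated stress response and amino acid synthesis 9 were above 0 (median 0.32, 6 intervals above 0). DDIT3, the transcription factor CHOP, was highest at 0.70, ATF4, the regulator of this response, stood at -0.02, and SHMT2, a serine hydroxymethyltransferase of mitochondria, was lowest at -0.51. For DDIT3 the input ratio was -0.65 and the IP ratio 0.04 relative to nuclear genes, so its change lay in the input. Other stress lists ran the other way or to both sides. The oxidative stress response had 5 of 9 measured members below 0, with 5 intervals below and 3 above and a median of -0.20, from PGD of the pentose phosphate pathway at -0.54 to TXN (thioredoxin) at 0.64. The 3 measured hypoxia genes, PLOD2, ADM and BNIP3L, were all below 0, with a median of -0.12 and 1 interval below 0.

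The 4 measured interferon and inflammatory genes of 27 listed were all above 0, as were their intervals, with a median of 0.59. IFITM3, a membrane protein that restricts viruses, had FPKM 7.87 in the lactate IP and 8.495 in the lactate input, against 16.01 in the vehicle IP and 24.1 in the vehicle input, a change of 0.99. CCL2, a chemokine of monocytes, had 11.4 and 23.2 in lactate cells, against 11.99 and 27.6 in vehicle cells, a change of 0.70. The change lay in the input for IFITM3 (-0.88, against 0.10 for the IP) and in the IP for CCL2 (0.97, against 0.28 for the input). ISG15, a ubiquitin-like modifier, stood at 0.48 and NFKBIA, the inhibitor of NF-kappaB, at 0.29. Actin cytoskeleton genes had 13 of 20 members above 0 (median 0.21, 12 intervals above 0), from TPM2, a tropomyosin, at -0.34 to MYL12A at 1.12. LGALS1 (galectin-1) was the highest of the keratin, S100, annexin and galectin list at 1.07, and its input ratio of -1.08, against -0.01 for the IP, held the change.

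Immediate early genes, which respond to growth signals within minutes, differed in level, and their changes in enrichment went to both sides. Of 25 listed genes 7 were measured. In all 7 the ratio of lactate over vehicle was above that of the median nuclear gene in the inputs and in the IPs, while the median change was -0.000877. By construction, as many nuclear genes lie above that median as below it. EGR1 met the IP minimum in the lactate IP alone, so its higher lactate IP was a condition of entry. The interval lay above 0 for 1 member, PHLDA1 at 0.41, and below 0 for EGR1 and for CCN2 at -0.28. EGR1, a zinc finger transcription factor, had FPKM 10.6 in the lactate IP and 7.502 in the lactate input, against 4.94 in the vehicle IP and 1.34 in the vehicle input, a change of -0.37, or -0.81 on reads (-1.25 to -0.38). CCN1, a secreted matrix protein, had 11.4 and 74.8 in lactate cells, against 10.9 and 54.5 in vehicle cells, a change of 0.12.

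Lists closer to NSUN2 lay near the centre. Of 28 messages described before as NSUN2 substrates 11 were measured, 7 above and 4 below 0, with a median of 0.07, 3 intervals above 0 and 3 below. GRB2, an adaptor of growth factor receptors, was highest at 0.37 and CDK1, the mitotic kinase, lowest at -0.46. Of the m5C writers, erasers and readers 4 were measured: SRSF2, a splicing factor, at 0.60, YBX1, a reader of m5C, at 0.31, YBX3 at -0.08 and YTHDF2 at -0.30. Of the nerve growth and perineural invasion list 4 of 45 were measured, from SEMA3C, a semaphorin, at -0.65 to NTN4, a netrin, at 0.21. Lactate transport and lactylation genes had 4 of 5 measured members above 0 (median 0.05), with BSG, the chaperone of lactate transporters, at 0.37 and HDAC2, a lysine deacetylase, at -0.45. Of these named genes, CDK1, SRSF2, YBX3, SEMA3C, NTN4 and HDAC2 met the IP minimum in the vehicle IP alone.

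The large lists of the translation and respiration machinery spread to both sides. Cytosolic ribosomal proteins had 34 of 65 above 0 and 31 below (median 0.06), with 21 intervals above 0 and 17 below, from RPL34 at -0.89 to RPS9 at 0.89. RPL34 had FPKM 10.7 in the lactate IP and 44.0 in the lactate input, against 48.3 in the vehicle IP and 70.1 in the vehicle input. RPS9 had FPKM 15.6 and 7.71 in lactate cells, against 22.5 and 14.8 in vehicle cells. Nuclear genes of oxidative phosphorylation had 23 of 53 above 0 and 30 below (median -0.07), and they held a called gene at each end, ATP5MC1 and UQCR11. Translation factors had 13 above and 15 below (median -0.05), and mitochondrial ribosomal proteins 16 and 22 (median -0.03).

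Processed pseudogenes, copies of messages in the genome, were set beside their parent genes. Of 219 processed pseudogenes, 125 could be paired by name with a parent gene of the comparison, 97 parents in all. Across pairs the change of the pseudogene and that of the parent had a Pearson r of 0.59 and a Spearman rho of 0.51, and 76 of the 125 pairs lay on the same side of 0. Of all 2500 genes 50.2% lay above 0, so unlinked pairs would share a side about as often as not. Reads that match both can be counted at either, and several pseudogenes share a parent, so pairs are not independent. Of 12 called pseudogenes with a parent 10 lay on its side of 0, and 0 of these parents were called. Among the 10, NDUFB1P1 (FPKM 0.73 in the lactate IP and 13.1 in the vehicle IP) and RPL34P27 (1.13 and 6.73) met the IP minimum in the vehicle IP alone. A low change was thus partly built in for both, and their lowest libraries held 1 and 6 reads. RPL41P1, also among the 10, had 4 reads in its lowest library and an interval that held 0 (-0.35 to 4.25). SNRPGP10 had FPKM 38.6 in the lactate IP and 107 in the lactate input, against 37.5 in the vehicle IP and 285 in the vehicle input, a change of 1.963, and its parent SNRPG, a core protein of the spliceosome, stood at 0.73. ATP5F1EP2 stood at -1.57 beside -0.97 for ATP5F1E. KRT18P10 at -1.38 went against KRT18 (keratin 18) at 0.22, and SNRPEP2 at 1.47 against SNRPE at -0.38. KRT18P10 met the IP minimum in the vehicle IP alone (FPKM 0.82 in the lactate IP and 5.08 in the vehicle IP).

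Small noncoding RNA lay on both sides of 0 on few reads, with 3 of 19 members called higher, 7 called lower and a median of -0.43. Among the lowest were RNU6-118P, a U6 pseudogene, at -2.56, SNORD11, a box C/D snoRNA, at -2.49, and SNORA11F and SNORA58, box H/ACA snoRNAs, at -2.29 and -2.06. Each of these was under FPKM 5 in the lactate IP and entered the comparison only by being high in the vehicle IP. SNORA58 had 7 and 22 reads in the lactate IP and input, against 59 and 44 in the vehicle IP and input, and the other 3 had at most 28 in any library. The highest change of all members also came from this class. BCYRN1, a cytoplasmic RNA derived from an Alu element that represses translation, had 28 and 63 reads in the lactate IP and input, against 9 and 203 in the vehicle IP and input, a change of 2.77 (3.08 on reads, 1.92 to 4.23). BCYRN1 met the IP minimum in the lactate IP alone (FPKM 9.22, against 3.30 in the vehicle IP). It could therefore enter the comparison only by being high in lactate cells. MIR1244-2, a microRNA precursor gene, had 96 and 135 reads in lactate cells, against 91 and 318 in vehicle cells, a change of 1.02. It is the only called small RNA with over 30 reads in every library, and its mature sequence from RefSeq (GRCh38.p14, chr5:118974640-118974665, plus strand) is shown for that reason, with the seed in capitals.
hsa-miR-1244: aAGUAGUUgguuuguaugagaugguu
RefSeq places the same mature sequence at further loci, and the counts of this gene cover RNA that the library kit could copy, which need not be the mature microRNA.

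The authors' deposited peak lists were also counted over the called genes. At q under 0.05 the lactate list had 20549 peaks and the vehicle list 46524, and 64.0% and 80.1% of the 2500 genes held at least 1. Of the 37 nuclear genes called higher, 12 held a peak in the lactate list and 11 in the vehicle list. Of the 39 nuclear genes called lower, 4 held a peak in the lactate list and 27 in the vehicle list. Peaks were called from the same reads as FPKM, so these counts are not independent of the change. Of all 40 genes called lower, 30 had entered through the vehicle IP alone, and calls were picked on the change itself. The smaller number with a lactate peak among them was therefore partly built in.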

How the data were processed

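Members and gene lists were chosen with earlier results of these data known. The authors deposited gene values in FPKM for 4 libraries, and peak lists with a fold enrichment as a ratio, each peak's p-value and q-value and the −log10 of both, per the file headers. The submitters' processing notes name HISAT2 2.1.0, an aligner, and MACS2 2.2.7.1, a peak caller, among the tools, and GRCh38 as the build. How reads were assigned to genes (tool, strand, multiple matches) was not given in the sources used here.

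Computation used Python 3.11.15 with numpy 2.4.6, pandas 2.3.3 and scipy 1.17.1. Whole reads were recovered from the FPKM steps: 100% of 72387 values above 0 came out whole within a relative 1e-06. A factor common to a gene's values is lost, so reads can be understated, and 3 of 34 mitochondrial genes were multiplied to their RefSeq length. Intervals (95%) are on the log2 ratio of ratios of reads. The recovery was tested on simulated data.

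Named genes were the 12 highest and 12 lowest protein-coding genes and up to 3 lncRNA at each end, with a symbol, at least 30 reads in both inputs and an IP, and an interval excluding 0. CDCP1, STC1, NSUN2, up to 3 members at each end of each of 37 lists, and genes enriched in a single condition were added. MALAT1, LDHA, LDHB, PKM, NCL, GNL3, FBL, ATF4, EGR1, CCN1, CCN2, PHLDA1, ITGA6 and the pseudogenes, small RNA and their parents were chosen after their values were seen where this rule does not name them. Other pseudocounts, centres, scalings and filters were tried. The values of 1 list member are not reported here.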

Additional observations from a re-analysis of the deposited data

Results flagged for a closer look

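SCOC-AS1, the RNA antisense to SCOC, lay on opposite sides of the nuclear median in the conditions. Relative to the nuclear median it was depleted in the IP of lactate cells (-0.52) and enriched in that of vehicle cells (1.35), a change of -1.92. Each side is 1 library against its input, and the difference was not tested. SCOC-AS1 met the IP minimum in the vehicle IP alone (FPKM 0.51 in the lactate IP and 8.81 in the vehicle IP), so it could enter the comparison only by being high in vehicle cells.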

How the results depend on the processing

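No paired analysis was possible because each group has 1 library and no replicate numbers, so leaving out a replicate could not be run either. The comparison of 2500 genes gave 39 higher and 40 lower, a median change before centring of -0.52, and interquartile ranges of enrichment of 1.58 in lactate cells and 1.62 in vehicle cells. With pseudocount 0.1 there were 62 higher and 84 lower, with ranges of 1.87 and 1.82. With pseudocount 5 there were 15 and 17, with a median change of -0.37 and ranges of 0.96 and 1.10. On reads without a pseudocount there were 66 and 87, with ranges of 1.90 and 1.85. Without centring there were 8 and 303, with CDCP1 at -0.57 and NSUN2 at -0.24, and of the 32 lists with at least 3 measured members only 1 median lay above 0. With the centre over nuclear genes of FPKM at least 1 in any library there were 19 and 77, and 7 list medians above 0. With equal nuclear totals there were 40 and 50, with a median change of -0.068, and CDCP1 stood at 0.10.

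The filter mattered too. With FPKM of at least 1 in an IP and in both inputs 4650 genes gave 82 higher and 97 lower, with a median change of -0.40 and a range of 1.36 in lactate cells. With 10 and 5 in their place 959 genes gave 16 and 19, with ranges of 1.43 and 1.498. With FPKM of at least 1 in any library 9445 genes gave 483 and 309, a median of -0.36, ranges of 1.29 and 1.52, and 12 list medians above 0. At least 30 reads left 25 and 20, and protein-coding genes alone 16 and 9. The causes of these differences beyond the settings' own construction were not tested. The medians of aminoacyl-tRNA synthetases and nucleolar proteins were below 0 under each of these settings. No centring and the centre over FPKM of at least 1 lower every median, so these 2 settings could not move them above 0. Those of glycolysis, the integrated stress response and mitochondrially encoded messages were above 0 under each except no centring. Of 32 lists, 18 changed side without centring, 12 with the centre over FPKM of at least 1 and 11 with the filter of at least 1 in any library. Interferon and inflammatory genes were above 0 under each. Of 25 named genes past 2-fold, all 25 stayed so with pseudocount 0.1 and on reads, and 7 with pseudocount 5. Without centring 10 stayed so, and 18 did with the centre over nuclear genes of FPKM at least 1 in any library. A count of 0 allows up to 1.97e-05% of the lactate IP and 2.68e-05% of the lactate input, against 2.20e-05% of the vehicle IP and 1.70e-05% of the vehicle input.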
